A study of Mus musculus with 6 samples.

Results

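Leukocyte adhesion molecules are the surface proteins by which vessel walls slow, hold and pass white blood cells. Selectins catch rolling leukocytes, members of the immunoglobulin superfamily such as ICAM-1 and VCAM-1 bind leukocyte integrins and hold the cells, and inflammatory cytokines switch several of these genes on in endothelium. Brain endothelium is known for low basal levels of the selectins and a low rate of leukocyte entry. The 8 genes described here are Icam1, Icam2, Vcam1, Sele, Selp, Cd200, Lrg1 and Alcam, chosen by symbol, and all 8 stood among the 24421 gene symbols of each library. Positions below are those of GENCODE M21 on GRCm38, which is the mm10 build.

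The libraries came from C57BL/6 mice. The normal group held 3 libraries of endothelial cells (EC) sorted from normal brain, and the glioma group held 3 libraries of endothelial cells sorted from tumors 3 weeks after orthotopic injection, for which the series' text names GL26l glioma cells placed in the brain of congenic hosts. The comparison sets tumor vessels against brain vessels. The libraries are called N1, N2 and N3 (normal) and G1, G2 and G3 (glioma) by their replicate number. The sources do not state the sort markers or how many animals stand behind a library, so the spread between libraries may be technical. Values are log2(x + 1) of 3′ tag signal on a scale that, from the values, was quantile-normalized, and which does not depend on gene length, and a difference is glioma minus normal on that log2 scale. In bulk RNA, fewer cells that carry a transcript and less transcript per cell cannot be told apart.

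The sorted cells carried their label's markers. All 14 endothelial markers were above 0 in every library, and their median log2 value ranged from 13.51 to 14.35. Over 5880 genes above 0 everywhere, N1 correlated with N2 and N3 at 0.58 and 0.60, while N2 and N3 gave 0.97. G1 correlated with G2 and G3 at 0.67 and 0.54, the last being the lowest of the 15 pairs, while G2 and G3 gave 0.75, so N1 and G1 each stood apart within their group. Some pairs across the groups were higher. N1 gave 0.66 with G1 and 0.67 with G2, above its values with N2 and N3, but 0.56 with G3. G2 gave 0.78 with N2 and 0.82 with N3, above its values with G1 and G3. The libraries thus did not sort by group alone. These correlations run over genes, which are not independent replicates. The column headers end in a number whose meaning is not stated. N2 and N3 share one ending, G2 and G3 share another, N1 and G1 each have their own, and no ending occurs in both groups, so what it marks cannot be told apart from the group. Genes above 0 numbered 7446 in N1, 11853 in N2, 13072 in N3, 13108 in G1, 10954 in G2 and 10013 in G3. The libraries also differed in the lowest value above 0 that they held. It was 7.43 in N1, against 2.84 and 0.22 in N2 and N3 and 0.42, 3.82 and 5.22 in G1, G2 and G3, so a transcript of low level could not be seen in N1. Genes of high level could also be listed at 0. Of 2391 genes above 9 in each of the other 5 libraries, 142 were at 0 in N1, and the like count was 26 of 2369 for G3, 3 of 2289 for G1, 1 of 2102 for G2 and 0 for N2 and N3. A gene listed at 0, above all in N1, may thus not have been without transcript. Endothelial markers held 1.38% of the summed signal in G1, the smallest share of the 6 libraries, where erythroid markers held 2.42%. The endothelial share was 2.38% in G2 and 1.64% in G3, and each glioma library lay below each normal one. Of 8 tested glioma or neural progenitor markers, 3 had glioma libraries wholly above the normal ones, with 0 wholly below. Sox11, among the 3 and named after its values were seen, was at 13.89 in G1. Of 10 fibroblast markers, 10 were above 0 in G1, 4 in G2, 1 in G3 and 3 to 5 in normal libraries. The part of such cells in the adhesion values was not tested.

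None of the 6 adhesion genes that could be tested passed, and 0 of 6 had glioma libraries wholly above or wholly below the normal ones. The fit with limma over 11862 genes likewise called 0 (0%) at a Benjamini-Hochberg adjusted p of 0.05, with 509 genes at an unadjusted p under 0.05, while glioma libraries lay wholly above the normal ones for 6.91% of all genes and wholly below for 6.37%. Of the 6 differences, 4 were positive and 2 negative, with a median of 0.25 beside 0.05 over all genes tested. The adjusted p from limma ranged from 0.891 to 1.00 over the 6 genes. Sele and Selp were above 0 in 2 libraries each and so did not reach the filter of 3 libraries.

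**Figure D1:**
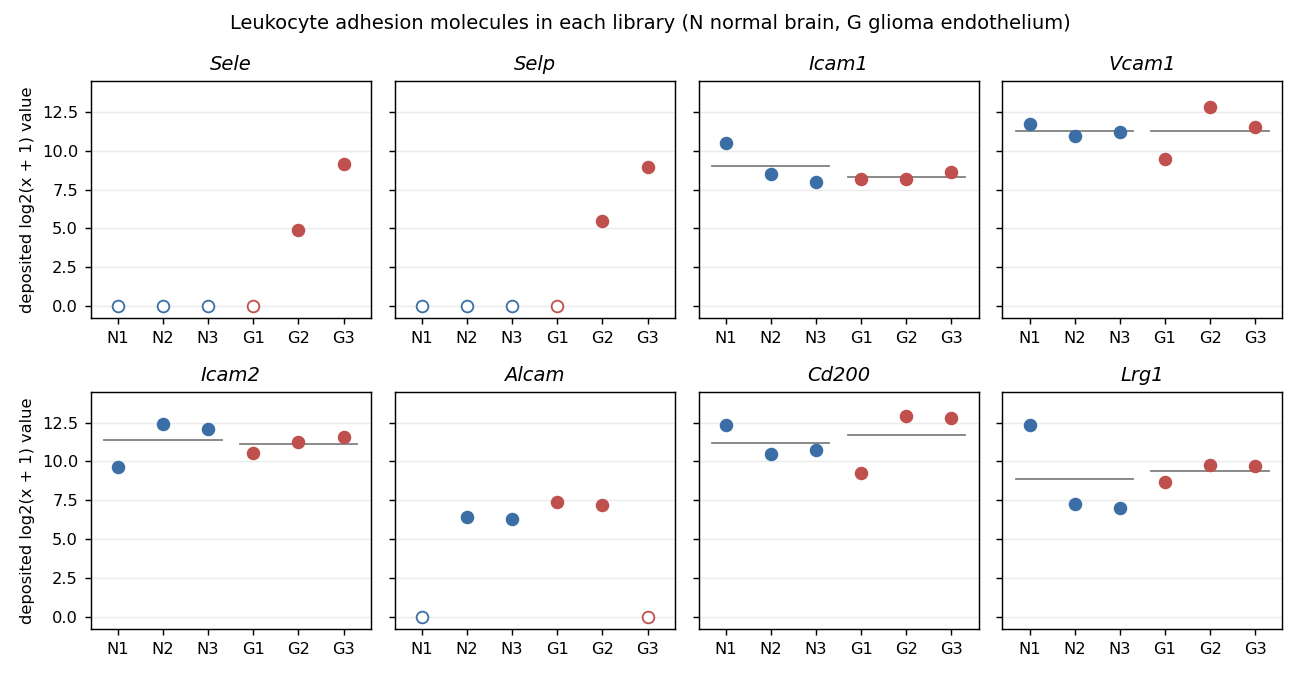
Deposited log2(x + 1) value (y axis) of each of the 8 adhesion genes in each library (x axis; N normal brain, G glioma endothelium). Filled points are values above 0, open points are genes listed at 0, and grey lines are group means of genes above 0 everywhere; Sele and Selp are above 0 only in G2 and G3, and Lrg1 is highest in N1 at 12.38.

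Sele and Selp were listed at 0 in every normal library, and Alcam was the only other adhesion gene listed at 0 in any library. Sele encodes E-selectin, which endothelium makes after cytokine stimulation, and lies on chromosome 1 from 164048234 to 164057677. Selp encodes P-selectin, which endothelium and platelets store in granules, and lies on the same strand from 164115264 to 164150026. The sequences of the 250 bases before the RefSeq start of Sele (chr1:164047984-164048233, plus strand) and of Selp (chr1:164115014-164115263, plus strand), from RefSeq on GRCm38.p6, are shown because both genes were detected in the same 2 libraries. Capitals mark matches to the AP-1 motif TGANTCA or the STAT motif TTCNNNGAA, searched on both strands.
Sele: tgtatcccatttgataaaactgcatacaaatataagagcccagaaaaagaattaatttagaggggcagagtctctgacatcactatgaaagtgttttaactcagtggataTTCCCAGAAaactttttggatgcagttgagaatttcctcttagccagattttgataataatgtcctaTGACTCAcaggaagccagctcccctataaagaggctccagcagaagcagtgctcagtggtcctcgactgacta
Selp: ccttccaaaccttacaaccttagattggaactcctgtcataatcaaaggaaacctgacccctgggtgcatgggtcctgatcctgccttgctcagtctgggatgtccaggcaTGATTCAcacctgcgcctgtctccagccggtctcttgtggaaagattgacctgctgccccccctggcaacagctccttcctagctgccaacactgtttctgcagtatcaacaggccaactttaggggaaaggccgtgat

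The AP-1 motif was present from base -73 to -67 of Sele and from -139 to -133 of Selp, counted back from the start, and in 6.75% of 32851 RefSeq promoter windows of 250 bases. The STAT motif was present in Sele from -140 to -132 and in Icam1 from -42 to -34, and in 7.02% of all windows. The NF-kB consensus of 10 letters was matched in 7.25% of windows and in none of the 6 adhesion genes with a promoter entry, which are Icam1, Sele, Selp, Cd200, Lrg1 and Alcam. Only exact matches were counted, so the search does not show that these windows lack NF-kB sites. All 250 bases of the Alcam window and 55 of those of the Lrg1 window lie in exons annotated by GENCODE. The matches overlapped no other motif searched. They describe the letters of these windows only.

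Sele was listed at 0 in N1, N2 and N3 and in G1, at 4.87 in G2 and at 9.14 in G3. Selp was listed at 0 in the same 4 libraries, at 5.47 in G2 and at 8.96 in G3. Both genes were thus above 0 in 2 of 3 glioma libraries and in 0 of 3 normal ones, and both were higher in G3. In that library Sele ranked within the top 43.4% of detected genes and Selp within the top 46.7%, and in G2 within the top 91.9% and 87.8%. The values in G2 lie under the lowest value above 0 of N1, but not under those of N2 and N3 or G1. Among 1437 genes above 0 in exactly 2 libraries, 42 (2.92%) were above 0 in G2 and G3, of which 36 were higher in G3. G2 and G3 are also the glioma libraries with a shared header ending, and its part in the selectin values was not tested.

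Selp is also a platelet gene. Of 10 platelet and megakaryocyte markers, 3 were above 0 in G2 (Gp1bb, Itga2b and Itgb3) and 1 in G3 (Itgb3), against 5 in N1 and 7 in each of N2, N3 and G1. Pf4, Ppbp and Gp9 were listed at 0 in G2 and G3, and Tubb1 in every library. Pf4, a platelet chemokine, stood at 9.06 in G1 and 8.96 in N1. The summed platelet signal was 0.0247% of N1, 0.00554% of N2, 0.00354% of N3, 0.0263% of G1, 0.00415% of G2 and 0.000804% of G3, and its part in the Selp values was not tested. The markers highest on average, Itgb3 and Gp1bb, stood at 7.11 and 0 in G3 and at 7.65 and 8.38 in G2, where Itga2b, the platelet integrin alpha chain, was at 7.44. The 3′ end of Selp overlaps 1436 bases of the opposite-strand transcript Gm16548, which was at 7.22 in G3, 1.22 in N3 and 0 elsewhere. Since the use of strand in counting is not given, reads of that pair cannot be told apart there, while the annotation gives Sele no overlapping gene. A further antisense gene, Gm16587, overlaps 2935 bases of Selp away from its 3′ end and is not among the listed symbols.

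**Figure D2:**
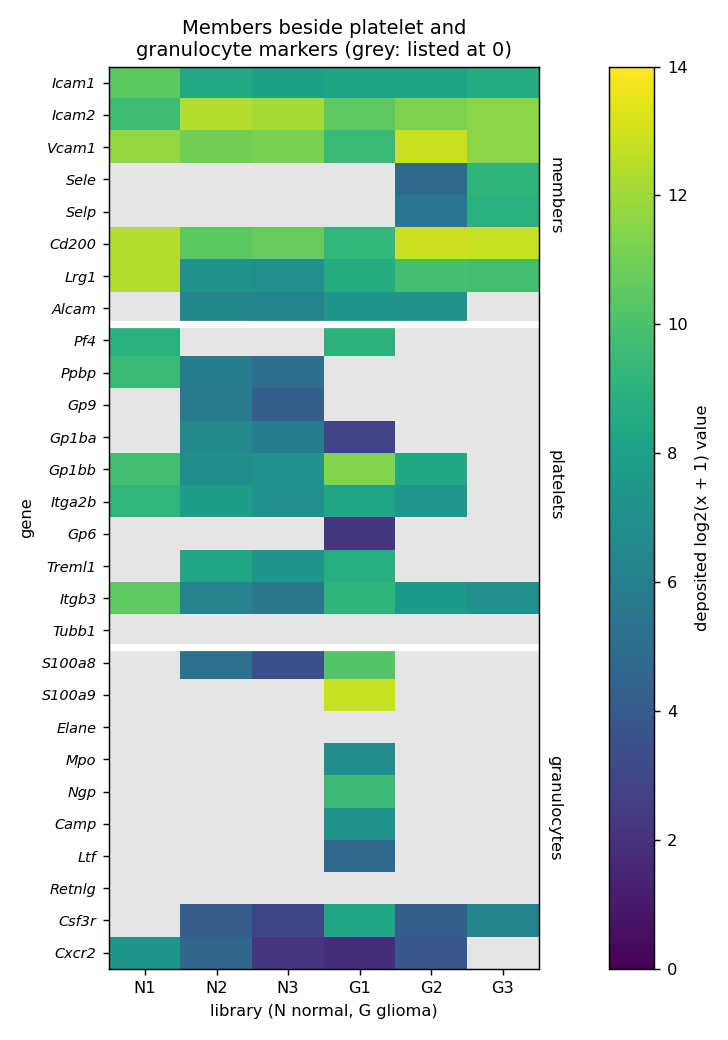
Deposited log2(x + 1) values (colour) of the 8 adhesion genes, 10 platelet markers and 10 granulocyte markers (rows) in each library (columns; N normal, G glioma), with grey for genes listed at 0. The platelet rows of G2 and G3 are mostly grey, and the granulocyte rows are filled mainly in G1.

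Other cells also differed between the 2 libraries with selectin signal. Microglia and macrophage markers were above 0 for 13 of 16 in G3, 3 of 16 in G2 and 13 of 16 in G1, with Adgre1 listed at 0 in every library. Their summed signal was 0.0846% of G3, 0.00515% and 0.00708% of G2 and G1, and 0.00167% to 0.0242% of the normal libraries. Their part in the selectin values was not tested. The 15 genes of a dissociation stress list held 0.835% of G3, 0.455% of G2, 0.530% of G1 and 0.394% to 0.501% of the normal libraries. All 15 were tested, 0 were called and 0 separated the groups. Their median difference was 0.55, beside 0.05 over all genes tested, with 14 positive and 1 negative. The part of such stress in the selectin values was likewise not tested. Vwf, which encodes the multimeric protein packed with P-selectin in endothelial granules, was at 10.35 in N1, 9.91 in N2, 9.93 in N3, 8.47 in G1, 11.46 in G2 and 11.79 in G3. Ch25h, a cholesterol hydroxylase of the venous list, was at 0 in N1, 5.87 in N2, 5.82 in N3, 3.12 in G1, 10.05 in G2 and 10.70 in G3. Vwf and Ch25h were chosen after their values were seen, and G2 and G3 were the highest libraries for each. Of the 10 venous and capillary-venous markers, 3 (Vwf, Ackr1 and Ch25h) were higher in G2 and G3 than in each of the other 4 libraries, and 2 (Ephb4 and Slc38a5) were lower. That split of libraries was taken from the selectin values. The share of all genes so placed was not computed, so the counts only describe these markers. Slc38a5, an amino acid transporter, was at 11.99 in N1, 11.66 in N2, 11.44 in N3, 11.08 in G1, 10.49 in G2 and 10.60 in G3. Ackr1 was at 10.56 in N1, 2.84 in N2, 3.58 in N3, 6.65 in G1, 10.87 in G2 and 10.69 in G3. Its value in N1, where both selectins were listed at 0, thus lay just under those of G2 and G3.

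Icam1 and Vcam1 encode the main endothelial ligands of the leukocyte integrins LFA-1 and VLA-4. Icam1 (chromosome 9, 21015985 to 21028817) was at 10.49 in N1, 8.47 in N2, 8.01 in N3, 8.17 in G1, 8.16 in G2 and 8.63 in G3. N1 was the highest, and the other 5 libraries lay close together. The difference was -0.68 (SE 0.92, 95% interval -2.76 to 1.41, limma adjusted p = 0.891), from 8.99 ± 1.32 to 8.32 ± 0.27 (SD, n = 3 each), and it was 0.07 without N1. The last 511 bases of Icam1 overlap the antisense gene Gm47079, which is not among the symbols of the files.

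Vcam1 (chromosome 3, 116109949 to 116129688) was at 11.71 in N1, 10.96 in N2, 11.21 in N3, 9.48 in G1, 12.85 in G2 and 11.56 in G3. The normal libraries lay close together, and the glioma libraries held both the lowest and the highest value. The difference was 0.00 (SE 0.80, 95% interval -1.82 to 1.83, limma adjusted p = 1.00), from 11.30 ± 0.38 to 11.30 ± 1.70 (SD, n = 3 each). Without G1 it was 0.91, and without G2 it was -0.78. The antisense gene Gm43109 overlaps Vcam1 away from its 3′ end. Vcam1 is also made by pericytes, whose 12 markers together with those of smooth muscle held 0.0412% to 0.126% of the normal libraries and 0.0601%, 0.0876% and 0.108% of G1, G2 and G3; from 9 to 12 of the 12 were above 0 in each library, and their part in the Vcam1 values was not tested.

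Icam2 and Alcam are further immunoglobulin superfamily members. Icam2, a constitutive endothelial ligand of LFA-1 (chromosome 11, 106377656 to 106388075), was at 9.65 in N1, 12.40 in N2, 12.10 in N3, 10.53 in G1, 11.23 in G2 and 11.59 in G3. It was lowest in N1 and highest in the other normal libraries, with glioma in between. The difference was -0.27 (SE 0.75, 95% interval -1.99 to 1.45, limma adjusted p = 0.952), from 11.38 ± 1.51 to 11.12 ± 0.54 (SD, n = 3 each). Without N1 it was -1.14 (SE 0.45, adjusted p = 0.480 with limma) and the groups did not overlap.

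Alcam, which encodes the ligand of CD6, a T cell surface glycoprotein (chromosome 16, 52248996 to 52454074), was at 0 in N1, 6.42 in N2, 6.31 in N3, 7.40 in G1, 7.22 in G2 and 0 in G3. Every Alcam value lay under 7.43, so a 0 in N1 says nothing of its level there. The limma difference of 0.63 (SE 3.09, 95% interval -6.41 to 7.68, adjusted p = 0.975) rests on those zeros, and it was -1.49 without N1 and 3.07 without G3.

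Cd200 and Lrg1 act beside the adhesion receptors. Cd200 encodes a membrane glycoprotein that restrains myeloid cells through its receptor CD200R (chromosome 16, 45382135 to 45409053). It was at 12.37 in N1, 10.47 in N2, 10.72 in N3, 9.29 in G1, 12.95 in G2 and 12.82 in G3. N1, G2 and G3 were high, and G1 was the lowest. The difference was 0.50 (SE 1.00, 95% interval -1.78 to 2.77, limma adjusted p = 0.929), from 11.19 ± 1.03 to 11.69 ± 2.08 (SD, n = 3 each). Without G1 it was 1.70 (SE 0.64, limma adjusted p = 0.775) and the groups did not overlap, as for 15% of all genes in that direction. Neurons also make Cd200, and 11 neuronal markers held 0.00649% to 0.00792% of the normal libraries and 0.0521%, 0.00045% and 0.00123% of G1, G2 and G3. They were above 0 for 4 of 11 in N1, 11 in N2 and N3, 10 in G1, 3 in G2 and 2 in G3, and their part in the Cd200 values was not tested.

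Lrg1 encodes leucine-rich alpha-2-glycoprotein, a secreted protein that modulates TGF-beta signalling through endoglin and ALK1 and marks venous endothelium under inflammation (chromosome 17, 56119678 to 56122001). It was at 12.38 in N1, 7.24 in N2, 7.03 in N3, 8.66 in G1, 9.79 in G2 and 9.72 in G3. N1 was the highest and the other normal libraries were the lowest, so Lrg1 spread more within the normal group than any other adhesion gene above 0 everywhere. The difference was 0.50 (SE 1.37, 95% interval -2.62 to 3.63, limma adjusted p = 0.950), from 8.89 ± 3.03 to 9.39 ± 0.64 (SD, n = 3 each). Without N1 it was 2.25 (SE 0.72, limma adjusted p = 0.422), with all 3 glioma libraries above both normal ones. Neutrophils also carry Lrg1. Of 10 granulocyte markers, 1 was above 0 in N1, 3 in each of N2 and N3, 8 in G1, 2 in G2 and 1 in G3. The marker in N1 was Cxcr2, a chemokine receptor, at 7.43, its highest value and the lowest above 0 of that library. S100a9, Mpo and Ngp were above 0 in G1 alone, while S100a8 was at 10.25 in G1, 5.27 in N2 and 3.42 in N3. Of 3 granulocyte markers tested, 1 had glioma libraries wholly above the normal ones, beside 6.91% of all genes, and 0 wholly below. The summed granulocyte signal was 0.000116% to 0.00102% of the normal libraries and 0.0581%, 0.000184% and 0.000449% of G1, G2 and G3, with Elane and Retnlg at 0 in all, and its part in the Lrg1 values was not tested.

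**Figure D3:**
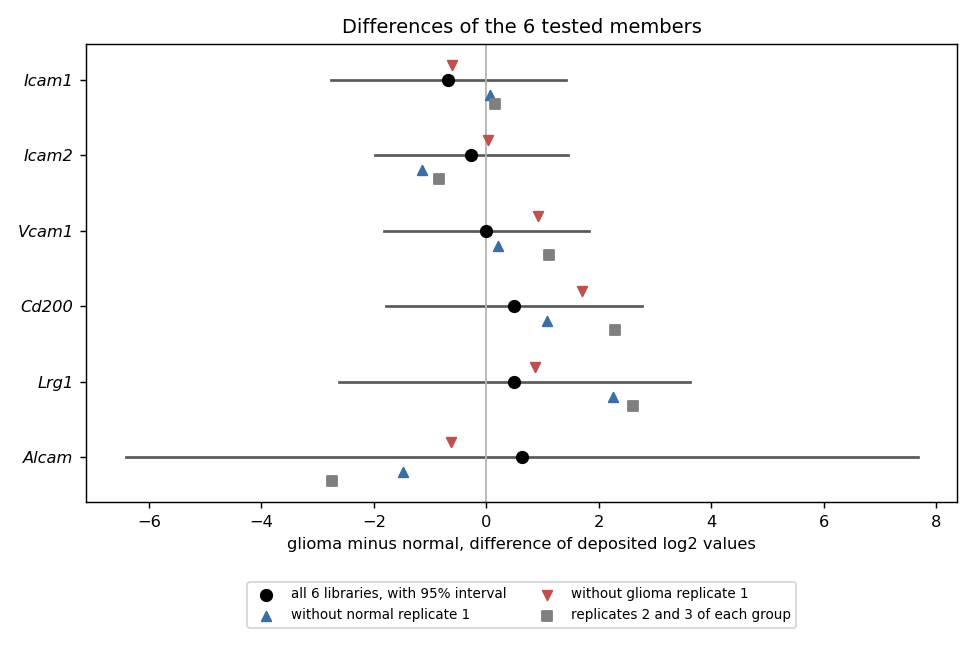
Difference in log2 value, glioma minus normal (x axis), of the 6 adhesion genes tested (y axis), with all libraries (black, with the 95% interval of the limma fit) and with libraries left out (coloured symbols). Every interval covers 0, and for Icam1 the sign turns from -0.68 to 0.07 without N1.

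Without N1 the groups did not overlap for 2 of 6 genes, with glioma above for Lrg1, as for 14.7% of all genes, and below for Icam2, as for 20.7%. The median difference of all genes was -0.35 in that comparison. With replicates 2 and 3 of each group alone, Cd200 (difference 2.29), Lrg1 (2.62) and Vcam1 (1.12) lay above and Icam2 (-0.84) below, beside 24.6% of all genes above and 30.9% below and a median of -0.24. The lowest limma adjusted p of an adhesion gene there was 0.126, shared by Cd200 and Lrg1.

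The order of the genes differed between libraries. In N2 and N3 it ran Icam2, Vcam1, Cd200, Icam1, Lrg1, Alcam from high to low. G1 began with the same 3 genes but had Lrg1 above Icam1, G2 and G3 began with Cd200, and N1 began with Lrg1 and ended with Icam2. By group mean the normal order was Icam2, Vcam1, Cd200, Icam1, Lrg1 and the glioma order Cd200, Vcam1, Icam2, Lrg1, Icam1. Neighbours among the 3 highest genes of each group differed by less than the SD of either gene, as did Icam1 and Lrg1 in the normal group.

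A gap between 2 genes of the same library leaves out a log2 shift common to both. The 3 pairs given were chosen after the values were seen. Icam2, the constitutive ligand, minus Icam1, the inducible one, was -0.85 in N1, 3.93 in N2, 4.09 in N3, 2.37 in G1, 3.07 in G2 and 2.97 in G3. The glioma gaps were narrower than those of N2 and N3 and wider than that of N1. Lrg1 minus Icam1 was 1.89 in N1, -1.23 in N2, -0.98 in N3, 0.49 in G1, 1.63 in G2 and 1.09 in G3, so Lrg1 exceeded Icam1 in all 3 glioma libraries and in N1. Cd200 minus Vcam1 was 0.66 in N1, -0.49 in N2, -0.49 in N3, -0.19 in G1, 0.09 in G2 and 1.26 in G3, with both signs in each group.

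**Figure D4:**
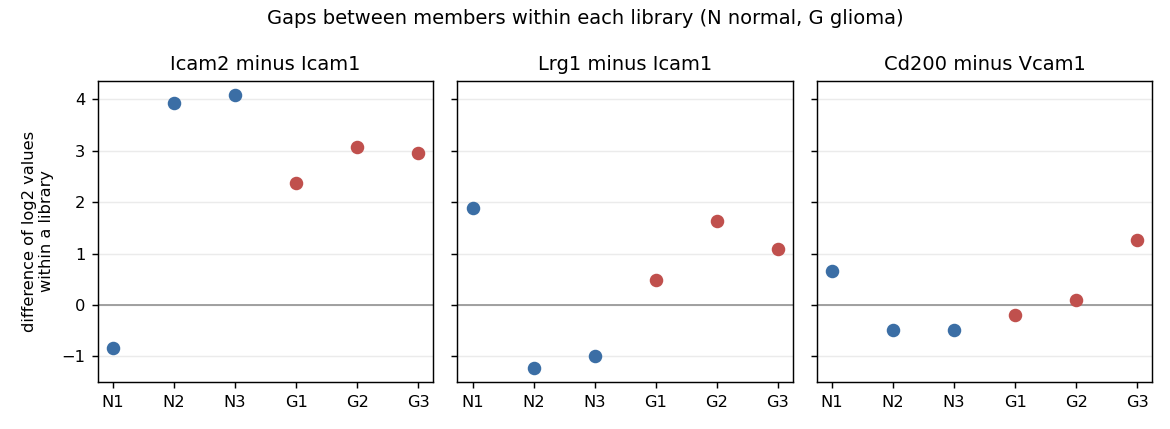
Difference between the log2 values of 2 adhesion genes within each library (y axis) for 3 pairs (panels) over the libraries (x axis; N normal, G glioma). In each panel N1 lies on the other side of 0 from N2 and N3.

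Levels were also set against the median of the endothelial markers of the same library, as gene minus median on the log2 scale. Cd200 gave -1.23 in N1, -3.60 in N2, -3.52 in N3, -4.23 in G1, -1.41 in G2 and -0.96 in G3. Lrg1 gave -1.22 in N1, -6.83 in N2, -7.21 in N3, -4.86 in G1, -4.56 in G2 and -4.06 in G3. Cd200 was highest in G3, N1 and G2 on this scale and lowest in G1, and Lrg1 kept N1 as its highest library and N2 and N3 as its lowest.

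Among the other 5879 genes above 0 in every library, the closest profiles were found by the root mean square difference of centred log2 values over the 6 libraries. They were Snx14 (0.127) and Etaa1 (0.187) for Icam1, Bptf (0.0747) and Tuba1b (0.144) for Icam2, and Cltb (0.179) and Zfp930 (0.180) for Vcam1. For Cd200 they were Mcfd2 (0.337) and Morc2a (0.341), and for Lrg1 Polr2i (0.325) and Fancg (0.353). Among the adhesion genes themselves, Vcam1 and Cd200 were the closest pair at 0.637, and Icam2 and Lrg1 the most distant at 2.65. With 6 libraries such likeness is a description of these libraries.

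Leukocyte partners of these molecules were detected unevenly. Of 13 counter-receptors and ligands, 6 were tested, 0 were called and 3 were listed at 0 in every library, among them Itgb7 and Cd6, the receptor of ALCAM. Itga4 and Itgb1, the chains of VLA-4, were above 0 in all 6 libraries, as was Glg1, a Golgi glycoprotein that binds E-selectin. Itga4 was at 9.82 in N1, 7.98 in N2, 8.71 in N3, 10.27 in G1, 8.89 in G2 and 5.22 in G3, and Itgb1, which endothelium also makes, ranged from 10.72 in G1 to 12.33 in G3. Itgal, the alpha chain of LFA-1, was at 3.52 in N3, 8.18 in G1 and 9.51 in G3 and listed at 0 in the other libraries. Itgb2, the beta chain of LFA-1 and Mac-1, stood at 9.69 in G3 and at 0 in the other 5 libraries, and Selplg, the P-selectin ligand PSGL-1, at 6.97 there and 2.84 in N2. Apart from Cd44, the genes of this list were named after their values were seen. Cd44, a hyaluronan receptor that binds E-selectin, was at 10.01 in N1, 0 in N2, 5.33 in N3, 9.89 in G1, 9.33 in G2 and 11.13 in G3 (limma adjusted p = 0.875), and its groups overlapped through N1. Of 11 T and NK cell markers, 9 were listed at 0 in every library, among them Cd3e, Cd4 and Cd8a. The markers detected were Lck, a T cell kinase, at 8.63 in G1 and 8.62 in G2 and listed at 0 elsewhere, and Cd3d, a chain of the T cell receptor complex, at 7.67 in N1, 4.88 in N2, 3.25 in N3 and 3.82 in G2.

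Other adhesion and transmigration genes of endothelium numbered 22 in the files, of which 18 were tested, 0 were called and 0 separated the groups, with a median difference of 0.06. Plvap, which forms the diaphragm of fenestrae, had the smallest p among them, with 11.66 in N1, 10.64 in N2, 10.58 in N3, 12.59 in G1, 11.32 in G2 and 11.99 in G3. The cytoskeletal linkers and docking proteins that gather ICAM-1 and VCAM-1 gave 15 tested, 0 called, 0 separated and a median of -0.04, with Msn, the linker moesin, at 13.41 in N1, 13.88 in N2, 13.76 in N3, 11.99 in G1, 14.07 in G2 and 12.72 in G3. Of 8 tested genes of selectin ligand synthesis 0 were called and 1 lay wholly above, with a list median of 1.11. It was St3gal4, a sialyltransferase, at 0 in N1, 4.68 in N2, 6.22 in N3, 7.76 in G1, 8.49 in G2 and 8.21 in G3.

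The pathways that control these genes showed no call either. Of 25 tested NF-kB and cytokine receptor genes 0 were called, 1 lay wholly above and 2 wholly below, with a median of 0.15. Socs3, a feedback inhibitor of cytokine signalling through STAT3, was at 8.41 in N1, 4.83 in N2, 5.07 in N3, 8.79 in G1, 9.07 in G2 and 11.60 in G3 (difference 3.72, SE 1.39, limma adjusted p = 0.875). Il6ra, the interleukin-6 receptor, was at 9.08 in N1, 9.31 in N2, 8.82 in N3, 0 in G1, 6.05 in G2 and 7.44 in G3. Traf2, an adaptor of TNF receptors, was at 9.34 in N1, 9.51 in N2, 8.93 in N3, 8.59 in G1, 6.57 in G2 and 0 in G3. Of 11 tested genes of the TGF-beta receptor route through which Lrg1 acts 0 were called and 0 separated, with a median of -0.24, and Smad3 had the smallest p, at 0 in N1, 6.89 in N2, 8.09 in N3, 7.69 in G1, 8.59 in G2 and 9.85 in G3.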

How the data were processed

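RNA in Trizol was made into 3′ tag libraries (Lexogen QuantSeq), per the labels' protocols. Bowtie2, edgeR and mm10 are named without role, per the submitters' processing notes; no source states the counting tool, strand use or annotation. Each deposited file holds 1 log2 value per symbol. From the values, these were read as log2(x + 1) of data that the authors quantile-normalized, since all 6 libraries share 1 highest value (20.85) and nearly equal sums. Depth is therefore unknown, and no counting interval is given.

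limma 3.58.1 (R 4.3.3) was run on these values (group as the only term, mean trend in the variance prior, 4 residual degrees of freedom) for 11862 genes, those reaching 1 on the linear scale in 3 or more libraries, with Benjamini-Hochberg adjustment over all of them. The fit was also run on simulated data, and no outcome at the spread of these libraries is given here. Over all genes tested, the 95% interval reached a median of 4.45 log2 units to either side of the difference. The lack of calls therefore does not show that the groups were alike. The members and gene lists were chosen with earlier results of these data known. From the other lists, a rule took genes whose groups did not overlap, up to 2 per direction. Where there were none, it took the smallest p, and from marker lists the 2 highest on average. Some genes that it picks are not named. Other genes are named outside this rule, among them Pf4, Ppbp, Gp9, Itga2b, S100a8, S100a9, Mpo, Ngp, Ackr1, Ephb4 and Slc38a5. These only illustrate their lists. RefSeq gave promoter windows for 6 of 8 members. The alternatives tried were no filter, a shared floor, a pseudocount of 64, median centring, no trend, a replicate block, replicates 2 and 3 only and each library left out. A gene of these lists is not reported here.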

Additional observations from a re-analysis of the deposited data

How the results depend on the processing

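The 6 tested adhesion genes gave 77 values under 13 alternatives, of which 0 passed the threshold and 17 had the other sign. The filter, the variance prior and the replicate block leave each difference unchanged by construction, so their values among the 77 could not turn. The pseudocount, the shared floor and median centring turned no sign, and the shared floor left no value for Alcam, whose values all lie under it. Leaving out each library in turn gave -1.17 to 0.074 for Icam1 (positive without N1), -1.14 to 0.24 for Icam2 (positive at 0.24, 0.09 and 0.03 without N2, N3 and G1 in turn), -0.78 to 0.91 for Vcam1 (negative at -0.16, -0.04, -0.78 and -0.13 without N2, N3, G2 and G3 in turn), -0.13 to 1.70 for Cd200 (negative without G2 or G3, at -0.13 and -0.07), -0.42 to 2.25 for Lrg1 (negative without N2 or N3, at -0.32 and -0.42) and -1.49 to 3.07 for Alcam (negative without N1, G1 or G2). With replicates 2 and 3 alone, Icam1 was 0.15 and Alcam -2.75. The cause was not tested. Over all genes, 15 were called without the trend in the variance prior, 10 of them higher in glioma and none an adhesion gene, against 0 in every other setting. The labels do not state that replicate numbers pair the libraries. Over genes, deviations of same-numbered libraries correlated at 0.19, 0.15 and 0.06. N1 correlated best with G1 (0.19) and N2 with G2 (0.15), while N3 also correlated best with G2 (0.19). With the replicate block 0 genes were called. Since depth is unknown, a 0 limits nothing below the lowest value of its library.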
